A study of Rattus norvegicus with 56 samples.

Results

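Series C is a set of 17 of the 56 expression arrays that were hybridized with RNA from cultured rat hippocampal neurons, and its levels were set against those of the 23 arrays of series A and B. The series are runs of the plain numbers in the sample descriptions. Each run lay on slides of its own, with the 11 arrays of series A on 2 slides, the 12 of series B on 2 and the 17 of series C, which carry the highest numbers, on 3. The labels do not say what a run of numbers stands for, such as a dissection or a day of plating. The other arrays were 15 of series D, whose numbers carry the letter D and which lay on all 7 slides, and 1 array of 1 Hz at 2 h of series A that the scanner software had marked as having a bad grid. Those 16 arrays were not in the comparison.

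All cultures were primary neurons from the hippocampi of Sprague Dawley embryos at E18, kept in Neurobasal medium with B27. Cultures were placed on a stimulation coil and received repetitive transcranial magnetic stimulation (rTMS) at 1 Hz or as intermittent theta burst stimulation (iTBS), and for sham the dish was kept in the incubator about 20 cm from the coil. RNA was isolated 0, 2, 8, 24 or 48 h later, and untreated cultures (CTR) were sampled at 0 h alone. Series C held 2 untreated arrays and 1 array of each of the other 15 groups of treatment and time. Of the 16 groups, 15 also held arrays of series A or B, the exception being 1 Hz at 2 h. Group was therefore a term of every model, so that series C was compared with series A and B among arrays of the same treatment and time.

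Neurons answer synaptic activity and calcium entry with immediate early transcription factors, among them Fos, Egr1 and Npas4, and with effector genes such as Arc, Bdnf and the neuronal pentraxins, which act at the synapse or are secreted. Growth factor signalling through the MAP kinase ERK drives many of the same genes and its own feedback phosphatases of the Dusp family. Levels of these genes in unstimulated cultures are the baseline from which any response to stimulation is measured.

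A level is given here as scaled log2 signal, in which the log2 processed signal of a probe was expressed relative to the mean of all probes of its array, so that a level of 0 is the mean of that array. Differences are C minus A and B on this scale and read as log2 changes. In series C, 70.4% to 74.8% of spots were well above background, against 66.1% to 75.8% in series A and B. None of 5 array quality measures passed an exact within-group permutation test of C against A and B, and the lowest of the p-values was 0.195, or 0.911 after Benjamini-Hochberg adjustment over the 5. The neuronal markers Tubb3 and Map2 were well above background on all 40 arrays, with a mean level of Tubb3 of 8.33 in series C and 8.24 in A and B, and of Map2 of 6.75 and 6.94. Other neuronal markers, among them Snap25, Syt1, Slc17a7 and Gad2, were lower in series C, as given below with the genes of neurons. The glutamate transporter of astrocytes, Slc1a3, and Olig2, a factor of the oligodendrocyte lineage, were also well above background on every array, so markers of glia were present beside those of neurons. In bulk RNA, a change in the number of cells of a type and a change in the RNA per cell cannot be told apart.

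Series C differed from series A and B in 11267 of 33554 probes (33.6%), called where the limma p after Benjamini-Hochberg adjustment was under 0.05, of which 5847 (17.4%) were higher and 5420 (16.2%) lower. Among 13286 genes with a symbol, 2670 (20.1%) were higher and 2033 (15.3%) lower, and the median difference over all genes was 0.01. Against series A alone the count was 13796 probes (41.1%), and against series B alone 10002 (29.8%). Series A and B differed from each other in 8981 probes (26.8%), so a large difference between series was not particular to C. In the same direction against both, 5201 probes (15.5%) passed. Series and slide cannot be told apart among these 40 arrays, since no slide held arrays of more than 1 of the 3 series. When slide was a random block, 3402 probes passed, and without the first of the 3 slides of series C the count was 4263. It was 4507 with the array with a bad grid included, where 38 of the 112 named genes that passed were lost.

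Genes induced by neuronal activity were for the most part lower in series C. Of 28 tested activity-induced effectors, 21 were lower in series C and 1 was higher, with a median difference of -0.82, beside 15.3% of all genes lower. Of 20 activity-induced transcription factors, 12 were lower and none higher, with a median of -0.71. Lower against both series A and series B, each on its own, were 18 effectors and 8 transcription factors, beside 6.21% of all genes. Both lists were chosen with earlier results of these data known. With slide as a random block, 17 effectors and 4 transcription factors were lower, beside 3.86% of all genes. Without the first slide of series C, which held its arrays of 0 h and 1 of 2 h, the counts were 14 and 3, beside 5.13% of all genes.

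Arc encodes a cytoskeletal protein that removes glutamate receptors from active synapses, and it was lower in series C. Its level in the 17 arrays of series C ran from 1.54 to 2.73 with a median of 2.00, and in the 23 arrays of A and B from 3.85 to 6.03 with a median of 4.86. No array of series C reached the lowest array of A and B. The difference was -2.75 ± 0.14 (SE, adjusted p = 4.9e-13, limma), and it was -2.76 against series A and -2.74 against series B. Arc was on the lower side in all 15 groups that held both, as were 2.07% of all genes.

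**Figure D1:**
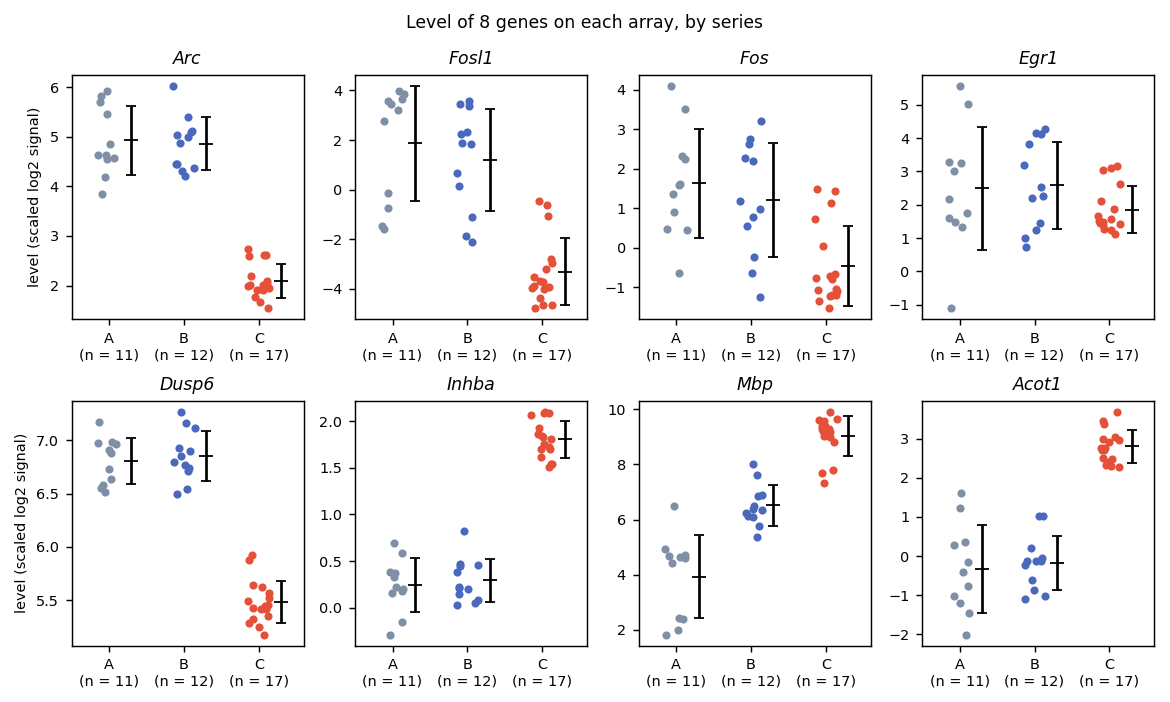
Level (scaled log2 signal, array mean at 0) of 8 genes on each array of series A (11 arrays), B (12) and C (17), with bars for the mean ± SD. Arc and Dusp6 are lower and Inhba and Acot1 higher in series C with no overlap of arrays, while the arrays of Fos, Egr1, Fosl1 and Mbp overlap.

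The feedback phosphatases of the ERK pathway were as sharply separated. Dusp5 ran from 3.23 to 4.08 with a median of 3.65 in series C and from 4.88 to 6.16 with a median of 5.51 in A and B, a difference of -1.87 ± 0.09. Dusp6 ran from 5.18 to 5.92 with a median of 5.45 in series C and from 6.49 to 7.26 with a median of 6.85 in A and B, a difference of -1.32 ± 0.07 (adjusted p = 3.63e-13). Neither gene had an array of series C within the range of the others. Dusp4 (-0.75 ± 0.14), Spry2 (-0.81 ± 0.17) and Spry4 (-1.52 ± 0.16), further inhibitors of growth factor signalling, also passed, and Dusp1 did not (-0.50 ± 0.22, adjusted p = 0.0767).

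Genes for secreted and synaptic proteins followed. Vgf, a precursor of secreted neuropeptides, ran from 7.0 to 7.62 (median 7.34) in series C and from 8.56 to 10.09 (median 9.12) in A and B, a difference of -1.85 ± 0.14. Nptx1, a neuronal pentraxin that clusters AMPA receptors, ran from 3.31 to 3.80 (median 3.55) against 3.81 to 6.23 (median 4.71), a difference of -1.34 ± 0.17. Its relative Nptx2 ran from 2.62 to 3.22 (median 3.04) against 3.55 to 5.26 (median 4.04), a difference of -1.14 ± 0.10. For these 3 genes too the arrays of series C all lay below those of A and B. The dimmer probe of Nptx1 was also lower (-0.73). The neurotrophin gene Bdnf overlapped, with 14 of the 17 arrays of series C below every array of A and B. It ran from 1.03 to 2.09 with a median of 1.56 in series C and from 1.99 to 5.23 with a median of 3.40 in the others, a difference of -1.55 ± 0.20 (adjusted p = 1.81e-06).

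Also lower were Nrn1 (-1.19 ± 0.15), Trib1 (-1.16 ± 0.15), Gadd45b (-0.97 ± 0.25), the enkephalin precursor Penk (-0.84 ± 0.19) and Scg2 (-0.83 ± 0.14), a granin of dense core vesicles. Ptgs2, the inducible cyclooxygenase, had no array of series C well above background and 11 of 23 in the others, and its level was at least 2.07-fold higher in A and B (adjusted p = 1.47e-07). Smaller differences passed for Pcsk1, Rgs2, Rgs4, Gadd45g and the kinase gene Plk2 (-0.50 ± 0.15, adjusted p = 0.011). Homer1 (-0.05 ± 0.06), Sik1, Sorcs3, Tac1 and Baz1a did not pass. The member that went the other way was Inhba, the activin A subunit, which ran from 1.51 to 2.10 (median 1.81) in series C and from -0.29 to 0.83 (median 0.22) in the others, a difference of 1.53 ± 0.08 with no overlap of arrays, and it was higher in all 15 groups, as were 5.19% of all genes. Over all effectors, 6 of 28 (21.4%) lay lower in series C with no overlap, against 0.203% of all genes, and 1 (3.57%) lay higher, against 0.437%.

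To show what the promoters of these genes hold, the 250 bases before the start site were read from the RefSeq table of build GRCr8 and searched on both strands for the cAMP response element (CRE) TGACGTCA, through which CREB acts on activity genes. It was found in 466 of 27457 promoters (1.7%), in 295 of 10850 promoters of tested genes (2.72%), in 4 of 20 effector promoters found in the table (20.0%) and in 2 of 15 promoters of the activity transcription factors (13.3%). Of the 6 genes, Vgf, Scg2, Plk2 and Maff were lower in series C and are shown, with the CRE in capitals, while Dusp1 and the brightest probe of Ier2 did not pass. Of the 2 probes of Ier2, 1 was lower (-0.87). The promoter of Vgf lies at chr12:25277021-25277270 on the minus strand, that of Scg2 at chr9:88256867-88257116 on the minus strand, that of Plk2 at chr2:43702286-43702535 on the plus strand and that of Maff at chr7:112792537-112792786 on the plus strand.
Vgf: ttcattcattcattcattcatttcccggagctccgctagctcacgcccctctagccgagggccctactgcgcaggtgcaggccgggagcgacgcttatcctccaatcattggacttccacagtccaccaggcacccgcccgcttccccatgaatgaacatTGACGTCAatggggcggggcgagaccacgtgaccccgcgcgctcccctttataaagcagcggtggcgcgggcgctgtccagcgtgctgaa
Scg2: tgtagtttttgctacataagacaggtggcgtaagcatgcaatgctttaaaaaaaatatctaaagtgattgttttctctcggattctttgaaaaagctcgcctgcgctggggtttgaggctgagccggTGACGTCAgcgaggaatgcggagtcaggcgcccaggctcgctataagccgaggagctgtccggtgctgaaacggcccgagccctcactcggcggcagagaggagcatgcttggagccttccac
Plk2: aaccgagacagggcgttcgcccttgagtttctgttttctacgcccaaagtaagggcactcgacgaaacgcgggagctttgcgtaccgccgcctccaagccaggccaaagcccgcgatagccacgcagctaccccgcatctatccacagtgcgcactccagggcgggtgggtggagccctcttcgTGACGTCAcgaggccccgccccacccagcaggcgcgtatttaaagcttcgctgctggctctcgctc
Maff: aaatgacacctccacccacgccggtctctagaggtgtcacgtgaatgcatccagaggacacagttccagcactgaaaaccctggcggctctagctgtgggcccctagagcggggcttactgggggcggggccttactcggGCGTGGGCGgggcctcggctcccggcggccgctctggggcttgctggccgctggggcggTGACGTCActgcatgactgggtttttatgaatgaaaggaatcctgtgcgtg

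Counted from the start site, the CRE lay at -90 to -83 in Vgf, -123 to -116 in Scg2, -66 to -59 in Plk2 and -51 to -44 in Maff. The second run of capitals in Maff, at -110 to -102, is the EGR site GCGTGGGCG, which was in 0.514% of all promoters. The AP-1 site TGANTCA was in none of the 15 and 20 promoters of the lists and in 6.36% of all promoters, and no match says only that these letters are not in this window. A match is a description of the sequence and not a measure of binding.

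The activity-induced transcription factors were less evenly separated than the effectors. Fos ran from -1.53 to 1.5 with a median of -0.80 in series C and from -1.25 to 4.11 with a median of 1.37 in A and B, and 2 arrays of series C lay below every other array. The difference was -1.74 ± 0.41 (adjusted p = 0.00191), with -1.97 against series A and -1.54 against series B, and it was on the lower side in 12 of 15 groups. Egr2 ran from -1.61 to 0.42 (median -0.72) against -0.05 to 3.30 (median 1.07), a difference of -1.96 ± 0.27, and its dimmer probe was also lower (-0.75). Egr4 ran from 0.94 to 2.39 (median 2.04) against 2.75 to 6.03 (median 3.67), a difference of -1.66 ± 0.17 (adjusted p = 5.68e-08). Egr4 was the transcription factor of the list with no overlap of arrays and it was lower in all 15 groups.

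Fosl1, a Fos relative induced by ERK signalling, ran from -4.78 to -0.45 (median -3.72) in series C, where 3 of 17 arrays had it well above background, and from -2.11 to 3.99 (median 2.26) in A and B, where 22 of 23 did. The difference was -4.77 ± 0.63 (adjusted p = 2.49e-06), a size that rests on signal near background in most arrays of C. Maff (-1.90 ± 0.36), Atf3 (-2.12 ± 0.61), Nr4a2 (-0.82 ± 0.19), Nr4a3 (-0.67 ± 0.19), Crem (-0.50 ± 0.12), Fosl2 (-0.50 ± 0.15) and Per1 (-0.51 ± 0.14) also passed. Npas4, a neuron-specific factor of activity, passed over all arrays (-1.5 ± 0.50, adjusted p = 0.0233) and against series A but not against series B (-0.96, adjusted p = 0.225). Signal well above background was present on 1 of 17 arrays of series C and on 13 of 23 of the others. Egr1 was not separated, running from 1.12 to 3.17 (median 1.52) in series C and from -1.11 to 5.57 (median 2.26) in A and B, a difference of -0.54 ± 0.36 (adjusted p = 0.267). Fosb (-0.90 ± 0.44), Junb (-0.75 ± 0.32), Nr4a1 (-0.49 ± 0.20), Klf4, Ier2, Jun and Egr3 (-0.13 ± 0.21) did not pass either.

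At baseline, in untreated and sham cultures alone, 7 arrays of series C were set against 9 of series A and B. In all, 5475 probes passed (16.3%), and among genes 10.9% were higher and 6.07% lower. Of the effectors, 21 of 28 were lower and 1 higher, with a median of -1.04, and of the transcription factors 9 of 20 were lower and none higher, with a median of -0.83. Without the first slide of series C, which held 4 of those 7 arrays, 11 probes passed, and with single arrays left out the lowest count was 2686, without sham at 0 h of series C.

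Arc at baseline was 2.10 and 1.54 in the untreated arrays of series C and 4.56 and 4.58 in those of series A. In sham it was 2.59 in series C against 4.63 (A) and 5.02 (B) at 0 h, and 2.03 against 5.82 (A) and 6.03 (B) at 2 h. At 8, 24 and 48 h the sham arrays of series C were at 1.96, 1.76 and 2.73, and the others at 4.21 (B), 4.45 (B) and 4.86 (A). Every baseline array of series C thus lay below every one of A and B, and the difference was -2.70 (adjusted p = 4.37e-05). The sham arrays of A and B were higher at 2 h than at 0 h, and that of C was not.

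Fos at baseline was -0.66 and -1.53 in the untreated arrays of series C and 2.25 and 1.6 in those of series A. In sham at 0 h it was 0.74 in series C against 2.31 and 2.75, and at 2 h -1.08 against 4.11 and 2.64. At 8 and 24 h the sham array of series C was at -1.18 and -1.19 and that of series B at 0.79 and -0.23. At 48 h the order turned, with 1.13 in series C and -0.63 in series A. The baseline difference was -2.03 (adjusted p = 0.0307).

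Npas4 was at -3.46 and -4.50 in the untreated arrays of series C and at -1.61 and -0.62 in those of series A. In sham at 2 h it was -4.28 in series C against 2.15 (A) and -0.77 (B), and at 48 h -0.33 against -3.34 (A). Its baseline difference did not pass (adjusted p = 0.122). Egr1 was at 1.52 and 1.49 in the untreated arrays of series C and at 1.6 and 2.18 in those of series A. In sham at 2 h it was 1.68 in series C against 5.03 (A) and 4.12 (B), and at 48 h 2.63 against 1.48 (A), and its baseline difference of -0.74 did not pass (adjusted p = 0.194). Fosl1 was between -4.78 and -1.08 in the baseline arrays of series C. In those of A and B it was between 2.26 and 3.86 up to 8 h, -1.11 at 24 h and -1.59 at 48 h.

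The difference between series C and the others changed with the time of sampling in 939 probes (2.8%) by a moderated F test over the 5 time points, and in none by stimulation, for which 234 probes (0.697%) had an unadjusted p under 0.05. That share is far below the one that the cut itself sets by chance, so the test by stimulation was conservative. It cannot show that the difference did not depend on stimulation. Within each series the slides followed time in part, although single slides held more than 1 time point. The test by time held no slide term, so a difference between time points can also be one between slides. Without the iTBS array of series C at 48 h 510 probes passed, and without its 1 Hz array at 48 h 522. Of the activity transcription factors 11 of 20 differed by time, and of the effectors 4 of 28. In the order of the 5 time points, the median of the transcription factors was -1.40, -2.11, -0.79, -0.26 and 0.63. That of the effectors was -1.09, -1.14, -0.96, -0.76 and -0.34, and so below 0 at every time.

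Fos is an example. At 2 h the 3 arrays of series C were at -1.34, -1.08 and -0.71 and the 4 of A and B between 2.28 and 4.11, a difference of -4.35. At 48 h the 3 arrays of series C were at 1.13, 1.44 and 1.5 and the 5 of A and B between -1.25 and 1.61, a difference of 1.51 (adjusted p over the time points = 0.000175). The median of A and B was highest at 2 h and lower at each later time, and that of series C was lowest between 2 and 24 h. Egr1 differed by -3.07 at 2 h and by 2.23 at 48 h (adjusted p = 0.000543), and Bdnf by -2.73 and -0.47 (adjusted p = 0.0137). Npas4 (adjusted p = 0.00739) and Fosl1 (adjusted p = 3.20e-06) also passed the test by time, but most arrays of series C had them near background and the size of the difference at a single time is therefore not given. Arc kept its place at every time, with 1.54 to 2.73 in series C and at least 3.85 in the others.

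**Figure D2:**
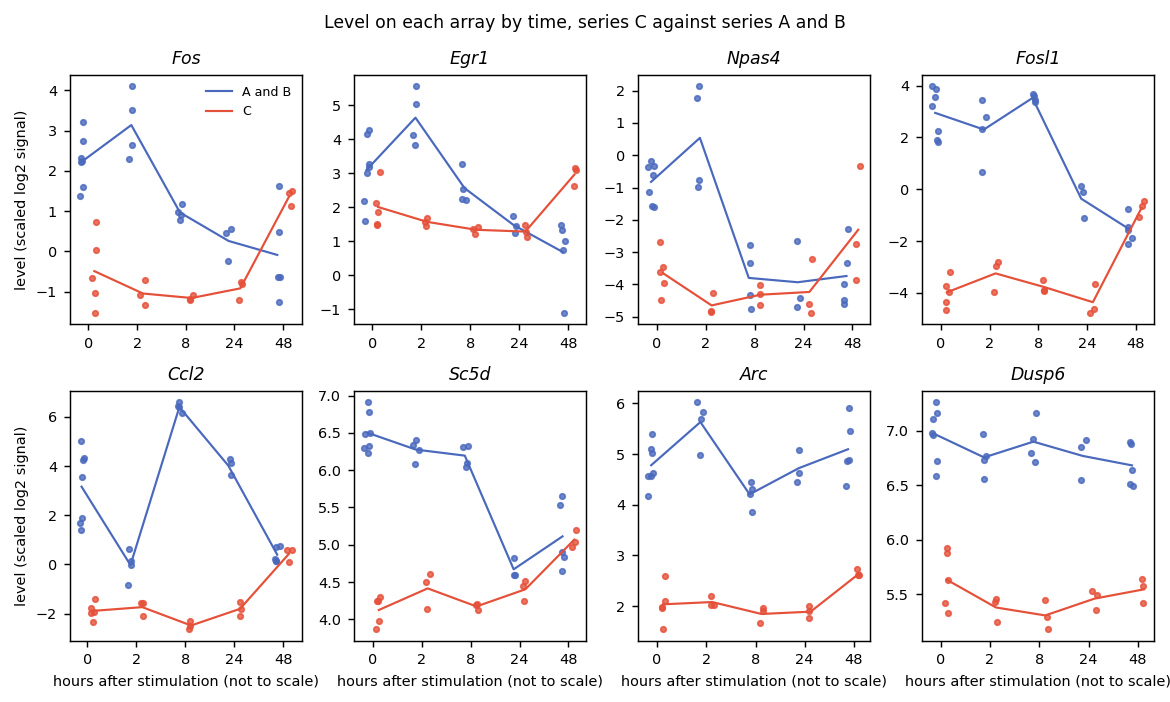
Level (scaled log2 signal) of 8 genes against hours after stimulation (not to scale), with a point for each array and lines through the means, series A and B in blue and series C in red. Fos, Egr1, Npas4 and Fosl1 are lower in series C at 2 h and not at 48 h, Ccl2 is lower up to 24 h, Sc5d is furthest apart up to 8 h, and Arc and Dusp6 stay apart at every time.

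Split by group, the median of the transcription factors was lowest in sham at 2 h, at -2.21 with 20 of 20 genes below 0. It was -2.03 both in 1 Hz at 0 h and in iTBS at 2 h. In untreated cultures it was -1.10, with 19 of 20 below 0. At 48 h it was 0.53 in sham, 0.77 in 1 Hz and 0.60 in iTBS. The effectors had a median below 0 in all 15 groups, from -1.20 in sham at 2 h to -0.18 in iTBS at 48 h, whereas the median of all genes lay between -0.06 and 0.09.

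**Figure D3:**
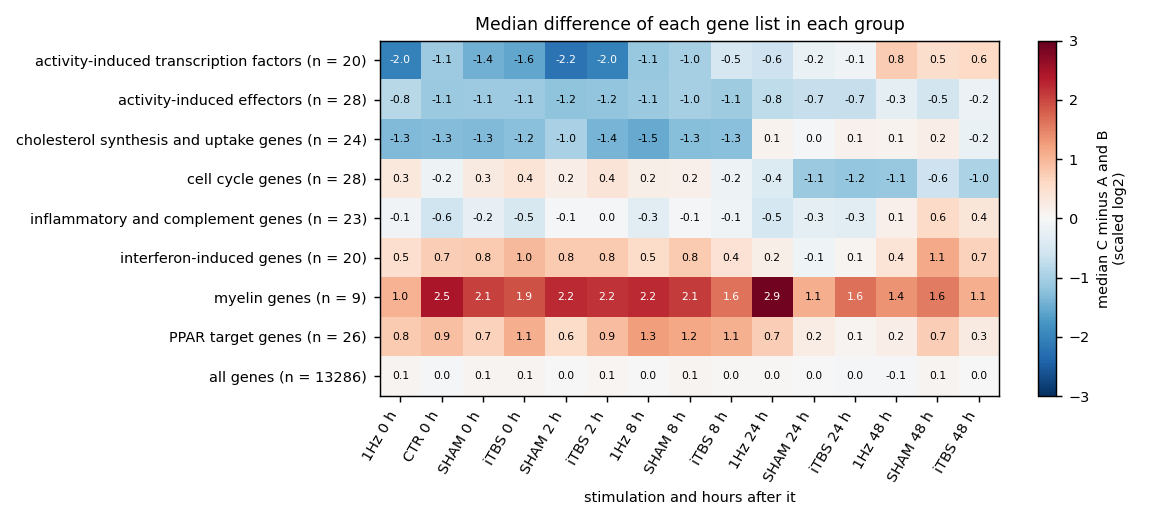
Median difference of series C minus A and B (scaled log2, colour scale from -3 to 3) of 8 gene lists and of all genes, in each of the 15 groups that held both. Effectors are below 0 and myelin genes above 0 in every group, the activity transcription factors are below 0 up to 24 h, and the cholesterol genes are furthest below 0 up to 8 h.

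Genes of cholesterol synthesis and uptake, which are induced together by SREBP2 when cells lack sterols, were lower in series C in 23 of 24 cases, beside 15.3% of all genes, with none higher and a median of -0.84. Sc5d, a late enzyme of the pathway, ran from 3.87 to 5.20 with a median of 4.25 in series C and from 4.59 to 6.91 with a median of 6.23 in A and B, a difference of -1.44 ± 0.21 (adjusted p = 1.16e-05), and 13 arrays of series C lay below all others. The sterol carrier Stard4 (-1.32 ± 0.23), Lss (-1.17 ± 0.19), Ebp (-0.73 ± 0.09), Insig1 (-1.03 ± 0.22) and Srebf2 itself (-0.37 ± 0.08) passed. Hmgcs1 did not (-0.32 ± 0.16, adjusted p = 0.11). With slide as a random block 14 of 24 passed, and without the first slide of series C 6 did, beside the shares of all genes lower given with the activity genes for these settings.

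The cholesterol genes also depended on time, with 14 of 24 past the test by time. Their median differences at the first 3 time points were -1.41, -1.23 and -1.38, followed by 0.06 and -0.01 at the last. Sc5d in series C was at 4.13, 4.19 and 4.20 at 8 h against 6.05 to 6.33 in the 4 arrays of A and B. At 24 h it was 4.24, 4.45 and 4.51 against 4.59, 4.60 and 4.82. From 8 to 24 h, then, the level of A and B was lower while that of series C had hardly moved.

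Genes of myelin, the sheath made by mature oligodendrocytes, had the highest median of the cell type lists. Of 9 tested, 7 were higher in series C and none lower, with a median of 1.74, beside 20.1% of all genes higher. The same 7 were higher against each of series A and B, beside 11.5% of all genes. Mbp, the myelin basic protein gene, ran from 7.31 to 9.91 with a median of 9.29 in series C and from 1.83 to 8.01 with a median of 5.77 in the others, a difference of 3.58 ± 0.46, and 14 arrays of series C lay above all others. Series A and B differed here as well, with 4.92 for C against A and 2.37 for C against B. The dimmer probe of Mbp was also higher, by 0.75. Cldn11, the claudin of myelin, ran from 5.34 to 7.27 (median 6.39) against -0.24 to 5.0 (median 3.03), a difference of 3.60 ± 0.43 with no overlap. Mag (2.84 ± 0.20), Ugt8 (1.74 ± 0.18), Cnp (1.59 ± 0.28) and Mog (0.66 ± 0.12) were higher too, and Mobp and Aspa did not pass. With slide as a random block the count was also 7.

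Earlier steps of the oligodendrocyte lineage differed less. The progenitor receptor Pdgfra (0.06 ± 0.18), Olig1, Olig2 and Cspg4 did not pass, while Sox10 (1.84 ± 0.25), a factor that drives myelin genes, and Bcas1 (1.31 ± 0.27), a marker of newly formed oligodendrocytes, did. Nkx6-2, a transcription factor of the lineage, ran from 0.80 to 2.70 (median 2.30) in series C and from -4.76 to 0.45 (median -0.77) in the others, a difference of 3.33 ± 0.39. Its lowest array of A and B was at a level at which Fosl1 was near background in series C, which limits this size. In all, 5 of 10 progenitor genes were higher and none lower, with a median of 0.18, beside 20.1% of all genes higher and 15.3% lower. Against series A alone 6 were higher and none lower, and against series B alone 2 were higher and 2 lower. Over all probes and both directions, 41.1% passed against series A and 29.8% against series B. The median of the myelin genes was between 1.04 and 2.89 in each of the 15 groups.

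Several genes of fatty acid use were among the largest differences in the whole table, and a list of 28 targets of the PPAR receptors, which sense fatty acids, was therefore drawn up after the values were seen. Of 26 tested, 21 were higher in series C and none lower, with a median of 0.77, beside 20.1% of all genes higher and 15.3% lower. That count is only a description of the genes so chosen. Acot1, an acyl-CoA thioesterase, ran from 2.28 to 3.68 with a median of 2.75 in series C and from -2.01 to 1.61 with a median of -0.15 in A and B. The arrays did not overlap and the difference was 3.13 ± 0.16 (adjusted p = 3.63e-13). Angptl4, an inhibitor of lipoprotein lipase, ran from 5.43 to 7.31 (median 6.03) against 0.74 to 6.25 (median 2.37), a difference of 3.28 ± 0.24.

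The lipid droplet gene Plin4 (2.89 ± 0.21), the fatty acid carrier Fabp4 (2.47 ± 0.31), Acot2 (0.90 ± 0.09), the mitochondrial importer Cpt1a (0.89 ± 0.15) and the dehydrogenases Acadl (0.84 ± 0.10) and Acadvl (0.80 ± 0.11) were higher, and Hadha and Hadhb did not pass. Angptl4 differed less at later times, by 4.19 at 0 h and 1.65 at 48 h (adjusted p = 0.0246). The level itself was higher at 48 h than at 0 h in both, from 7.07 to 7.31 against 5.43 to 6.08 in series C and from 4.77 to 6.25 against 0.74 to 2.05 in A and B. The list's median was between 0.07 and 1.26 in the 15 groups.

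**Figure D4:**
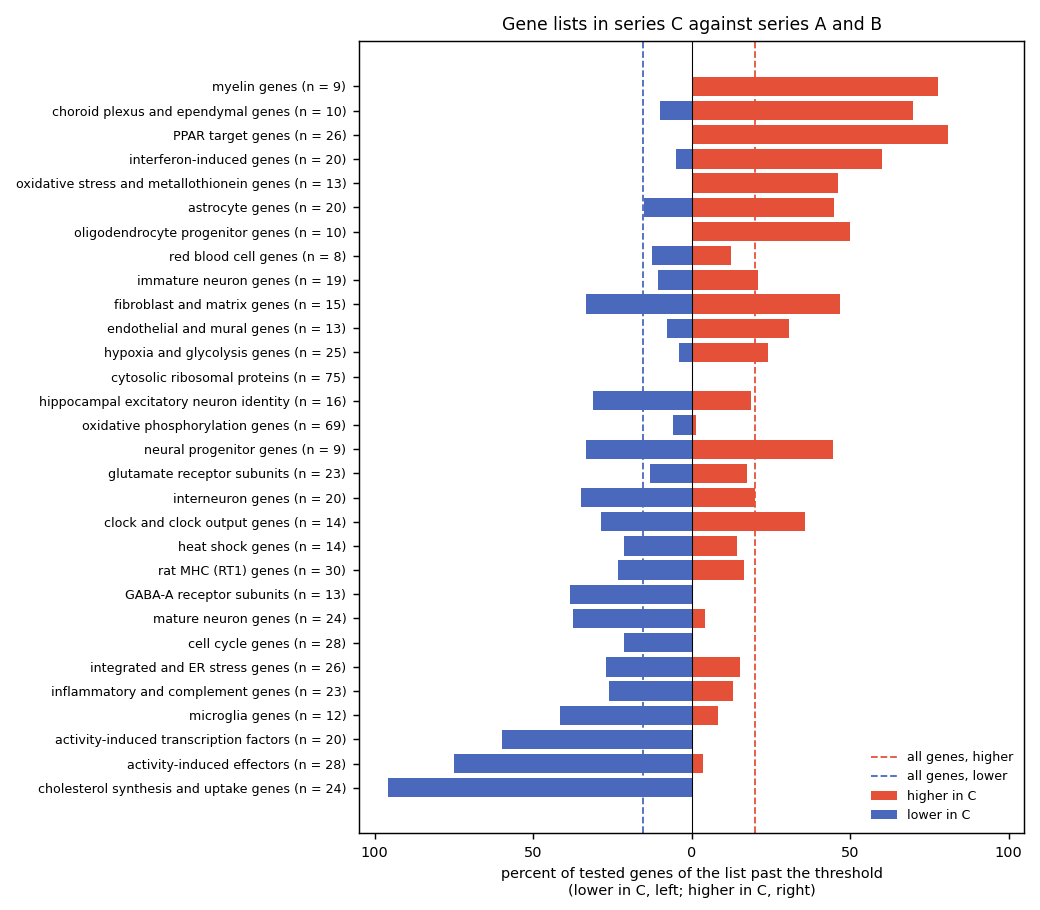
Percentage of the tested genes of each list that were higher or lower in series C than in A and B at an adjusted p under 0.05, with dashed lines at the 20.1% and 15.3% of all genes. Cholesterol genes and activity-induced effectors have the largest shares lower, and PPAR targets (a list chosen after the values were seen) and myelin genes the largest shares higher.

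Other genes with the largest differences that kept their side in all 15 groups and against both series were as follows. Higher in series C were Efemp1, a matrix glycoprotein (3.79 ± 0.39), Serpinf1, a secreted serpin (3.17 ± 0.27), and Nat8f5 (3.05 ± 0.33). Serpinf1 had no overlap, running from 2.96 to 5.26 in series C and from -0.93 to 1.67 in the others. Lower were Mgp, the matrix Gla protein (-3.67 ± 0.45), Tex10 (-2.80 ± 0.11), Ccn1, a matricellular protein (-2.43 ± 0.30), Gbx2 (-2.11 ± 0.19), the mechanosensitive channel Piezo1 (-1.94 ± 0.31), the neuropeptide Vip (-1.92 ± 0.17) and Emp1 (-1.92 ± 0.29). The dimmer probe of Gbx2 did not pass (-0.38). Tex10, whose product acts in ribosome assembly, had the smallest adjusted p of the named genes. It lay between -0.52 and 0.03 in the 17 arrays of series C and between 2.00 and 3.28 in the 23 others (adjusted p = 2.51e-15).

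The differences of Mgp and Ccn1 both depended on time. Mgp in series C stayed between -1.79 and 0.10, while in A and B it was -0.91 to 2.47 at 0 h and 5.22 to 6.58 at 24 h, so the difference was -1.93 at 0 h and -7.12 at 24 h (adjusted p = 0.000795). Ccn1, which is induced by serum and growth factors, was 3.20 to 5.15 in A and B at 0 h and 0.39 to 0.61 at 48 h. In series C it was 0.36 to 1.43 at 0 h and -0.04 to 0.28 at 48 h, and the difference shrank from -3.36 to -0.33 (adjusted p = 3.77e-05).

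Markers of other cell types differed in both directions, and their counts stand beside 20.1% of all genes higher and 15.3% lower. Col1a1 (2.71 ± 0.24), Col1a2 (2.48 ± 0.16), Col3a1 (2.77 ± 0.27) and Bgn (1.35 ± 0.11) were higher, while Mgp, Lum, Dcn, Igfbp2 and Col5a1 were lower, so that 7 of 15 fibroblast and matrix genes were higher and 5 lower. Of 10 choroid plexus and ependymal genes, 7 were higher and 1 lower (median 0.79), with Ttr at 2.08 ± 0.40, Foxj1 at 0.81 ± 0.09, Tmem212 at 1.48 ± 0.28 and Aqp1 at -0.47 ± 0.08. The dimmer probes of Foxj1 (-0.10) and Aqp1 (0.37) lay on the other side and did not pass. In a fit that included series D and a term for slide, called the slide term here, 2 of the 10 were higher, beside 15.1% of all genes. Of 12 microglial genes, 5 were lower and 1 higher (median -0.55), with Trem2 at -2.0 ± 0.35, Laptm5 at -0.46 ± 0.11 and P2ry12 at 0.78 ± 0.16, and Cx3cr1 (-0.12 ± 0.21) did not pass. Aif1 was well above background on 4 of 17 arrays of series C and 13 of 23 of the others (-1.17 ± 0.46, adjusted p = 0.0495), and the microglial difference was larger against series A (median -1.09) than against series B (median -0.04). The part of these cell types in the differences of the activity, cholesterol and fatty acid genes was not tested.

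Astrocyte genes were higher in 9 of 20 cases, beside 20.1% of all genes, and lower in 3 (median 0.28). The number higher ran from 5 to 11 with single arrays left out, and it was 5 with the slide term, 2 with the array with a bad grid and 1 with slide as a random block. Against series A alone 10 were higher and 2 lower, and against series B alone 2 were higher and 4 lower. Hopx was separated without overlap (2.53 ± 0.38), Agt was higher (0.69 ± 0.15), Mlc1 (-0.55 ± 0.09) and Sox9 (-0.45 ± 0.08) were lower, and the defining markers Gfap (0.20 ± 0.27) and Aqp4 (0.50 ± 0.21, adjusted p = 0.0603) did not pass. The dimmer probe of Hopx was also higher, by 0.74. For Sox9 only 1 of its 4 probes passed. Of 13 endothelial and mural genes, 4 were higher, led by Pdgfrb (1.81 ± 0.24) and Pecam1 (0.86 ± 0.16), and Acta2 was lower (-0.33 ± 0.06). Cldn5 was well above background on none of the 17 arrays of series C and on 3 of the 23 others. Red blood cell genes had 1 higher, Ahsp, and 1 lower, Hba-a1, of 8. Of 9 neural progenitor genes, 4 were higher, among them Prom1 (1.42 ± 0.22) and Hes5 (1.61 ± 0.28), and 3 lower, among them Nes (-0.89 ± 0.11) and Hes1 (-0.62 ± 0.10).

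Genes of the neurons themselves went in both directions, and their counts stand beside 20.1% of all genes higher and 15.3% lower. Of 24 mature neuron genes, 9 were lower and 1 higher (median -0.16), with the neurofilaments Nefh (-1.30 ± 0.14) and Nefl (-0.63 ± 0.10) lower, Nrgn higher (1.07 ± 0.20), and Map2 (-0.17 ± 0.16), the brighter of the 2 probes of Syn1, Sncb, Vamp2 and Rbfox3 not past the threshold. Against series A alone 11 of the mature neuron genes were lower and 1 higher, and against series B alone 4 were lower and 3 higher. The neuronal markers Snap25 (-0.32), Slc17a7 (-0.65), Gad2 (-0.75) and both probes of Syt1 (-1.10 and -0.66) were lower. So was 1 of the 2 probes of Gad1. Of 19 immature neuron genes, 4 were higher, including Igfbpl1 (1.17 ± 0.17) and Sox11 (0.48 ± 0.09), and 2 lower, Nhlh1 (-0.34 ± 0.08) and Dpysl3 (-0.43 ± 0.14). Of 16 excitatory identity genes, 3 were higher, including Lmo4 and Lhx2, and 5 lower, including Fibcd1 (-1.27 ± 0.12) and Wfs1 (-0.81 ± 0.10). Interneuron genes were mixed, with 4 of 20 higher and 7 lower. The shares higher in the immature, excitatory identity and interneuron lists were near that of all genes. Vip ran from -2.11 to -0.80 in series C and from -0.46 to 1.16 in the others, and Dlx1 from 2.80 to 3.71 against 1.52 to 2.77, both with no overlap. Pvalb was higher (1.5 ± 0.15) and Nxph1 lower (-0.53 ± 0.08), though at 0.27 with the slide term.

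Of 23 glutamate receptor subunits, 4 were higher and 3 lower, shares near the 20.1% and 15.3% of all genes, and 1 to 6 were lower with single arrays left out. Grin2c (1.25 ± 0.18) was higher and Grin2a (-0.72 ± 0.15) and Grm5 (-0.61 ± 0.22) were lower. Of 13 GABA-A subunits, none was higher and 5 were lower, with Gabra4 at -0.72 ± 0.14.

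Interferon-induced genes were higher in 12 of 20 cases and lower in 1 (median 0.60), beside 20.1% and 15.3% of all genes. Oasl2 (2.28 ± 0.26), Isg15 (2.02 ± 0.29), Rsad2 (1.56 ± 0.19), Psmb8 (1.42 ± 0.16) and Ifi44 (1.06 ± 0.11) were higher and Tap1 was lower (-0.78 ± 0.11). With slide as a random block 8 were higher, beside 8.31% of all genes, and without the first slide of series C 6, beside 9.67%. Inflammatory and complement genes went in both directions, with 6 of 23 lower and 3 higher, beside 15.3% and 20.1% of all genes. The chemokine Ccl2 was at -2.63, -2.50 and -2.31 at 8 h in series C and between 6.14 and 6.60 in the 4 arrays of A and B, whereas at 48 h it ran from 0.10 to 0.60 against 0.13 to 0.76 (adjusted p by time = 4.49e-06). Over all times Ccl2 (-4.39 ± 0.64), Cxcl1 (-2.74 ± 0.63), Timp1 (-1.82 ± 0.20) and Icam1 (-1.74 ± 0.36) were lower and C1r (1.35 ± 0.18) and C1s (0.68 ± 0.11) higher. The rat MHC genes had 5 of 30 higher, including RT1-M3-1 (0.97 ± 0.12) and RT1-T24-4, and 7 lower, including RT1-CE7 and RT1-CE3, shares of 16.7% and 23.3% beside 20.1% and 15.3% of all genes.

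Stress and metabolic lists were mixed, and their counts stand beside 20.1% of all genes higher and 15.3% lower. Oxidative stress and metallothionein genes were higher in 6 of 13 cases and lower in none (median 0.34), led by Txnip, a glucose-regulated inhibitor of thioredoxin (2.49 ± 0.32), and Nqo1 (1.43 ± 0.19). Of 25 hypoxia and glycolysis genes, 6 (24.0%) were higher, near the 20.1% of all genes, including Mxi1 (0.85 ± 0.10) and Egln3 (0.65 ± 0.08), and Pfkfb4 was lower (-0.31 ± 0.07), though at 0.0089 with the array with a bad grid. Integrated and ER stress genes had 4 of 26 higher, including Nupr1 (1.31 ± 0.31) and Ddit4 (0.58 ± 0.13), and 7 lower, including Hspa5 (-0.50 ± 0.11) and Slc3a2 (-0.41 ± 0.13), and 14 of the 26 differed by time. With single arrays left out 3 to 11 were lower, and with the array with a bad grid 1 was, where Hspa5 was at 0.034 and Slc3a2 at 0.081. Of 14 heat shock genes, Cryab and Bag3 were higher and 3 were lower, including Hsp90aa1 (-0.43 ± 0.10) and Hsph1. The shares higher in the integrated and ER stress list and in the heat shock list lay below that of all genes. Of 14 clock genes, 5 were higher, including Dbp (1.13 ± 0.13) and Tef (0.48 ± 0.08), and 4 lower, including Per1 and Per2 (-0.42 ± 0.14).

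Lists of housekeeping functions had medians near 0. None of 75 cytosolic ribosomal proteins passed (median 0.04), although 35 were higher against series A alone, and 12, 17 and 20 were higher with scaling to the 75th percentile, quantile normalization and normexp. Of 69 oxidative phosphorylation genes, Cox6b1 was higher and 4 were lower, including Atp5f1b and Ndufs8 (median 0.02). Cell cycle genes had 6 of 28 lower, including Hmmr (-1.16 ± 0.15) and Rrm2 (-0.54 ± 0.12), and none higher, beside 15.3% and 20.1% of all genes. The brightest probe of Mki67 did not pass (-0.07 ± 0.12), while 1 of its 4 probes was lower. With the slide term 9 cell cycle genes were higher and none lower, and Rrm2 turned to 0.43. Their median changed with time from 0.15 and 0.34 at the first 2 time points to -0.87 and -0.94 at the last 2, and 16 of 28 differed by time. The 2 tested genes of the list of Y-linked genes and Xist did not pass.

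Series D offered a check of the slides, since 8 of its arrays lay on the slides of A and B and 7 on those of C. A fit with series D as a level of its own and a term for the slides of C gave 8664 probes (25.8%) for series C, and 2730 (8.14%) for the slide term itself. The arrays of D on the slides of A and B were from 0 to 8 h and those on the slides of C from 8 to 48 h, so the slide term also takes up any difference of series D over time. In that fit Arc differed by -3.15 and Fos by -3.58. In it 19 of 20 activity transcription factors and 20 of 28 effectors were lower, beside 10.8% of all genes, and 7 of 9 myelin genes were higher, beside 15.1%. Of the PPAR targets 14 of 26 were higher, which only describes a list chosen after the values were seen. For the cholesterol genes 7 of 24 were lower, with a median of -0.34, and for cell cycle genes the median turned to 0.56.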

How the data were processed

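The authors extracted the spot signals of 56 single-colour Agilent rat arrays with Feature Extraction 12.0.3.1 and deposited them as processed signal, an intensity on a linear scale that was background-corrected and not normalized between arrays. They also deposited a score for each probe, the z-score of the log signal within each array, which was used only to check the same z-scores made here, and the files name build rn4.

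Spots of a probe were averaged on the log2 scale, converted to z-scores within each array and rescaled by 4.06, the median of the SDs of the arrays. Of 45598 probes, 420 had no value and 11624 were well above background on fewer than 3 of the 40 arrays, which left 33554. Symbols came from a RefSeq table of build GRCr8 through probe accessions (21109 probes, 16581 genes), and the brightest probe stood for a gene. Models with group and series were fitted with limma 3.58.1 in R 4.3.3 (23 residual and 2.97 prior degrees of freedom), two-sided, with Benjamini-Hochberg adjustment over all probes. The labels do not say that arrays of a group came from separate cultures, so p-values measure the spread between arrays, whose number limits the precision. Errors of differences are standard errors of the fit. The script was tested on simulated data.

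The members and the gene lists were chosen with earlier results of these data known. Named genes were a fixed set of activity genes and cell type markers, up to 8 genes higher and 8 lower with the largest differences on the same side in all 15 groups and against both series, and up to 2 higher and 2 lower per list. Other genes, and the PPAR list, were chosen after their values were seen. A fold given as "at least" sets the brighter mean against, per array, the higher of the dim probe's own signal and the lowest signal well above background. No tested probe carried the symbol Hbb. Results for some genes are not reported here. The array with a bad grid was left out, as the design provided.

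Replicate numbers are shared between groups, and numbers were not taken to pair the arrays. Deviations from the group means correlated by 0.098 on average between arrays of the same number and by -0.049 between others. In many groups the arrays of series C shared a number, so these correlations include the difference between series. They cannot show whether numbers pair arrays, and a block by number was run as an alternative. Arrays of series C correlated with each other in their deviations by 0.308, and with arrays of A and B by -0.209. Alternatives covered the scaling, background correction, filters, a slide block, series D, each slide of series C and each array left out in turn.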

Additional observations from a re-analysis of the deposited data

Results flagged for a closer look

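The difference between series C and the others depended on the time of sampling (moderated F test, limma) for 27 of the 124 named genes, each with a single adjusted p. Among activity genes these were Fos (0.000175), Fosb (0.0470), Fosl1 (3.20e-06), Egr1 (0.000543), Egr2 (0.000264), Nr4a1 (0.0355), Nr4a2 (0.0140), Npas4 (0.00739) and Bdnf (0.0137). Of matrix, growth and identity genes they were Mgp (0.000795), Ccn1 (3.77e-05), Timp1 (0.0219), Gbx2 (0.0324), Fibcd1 (0.0281), Mki67 (0.0262) and Rrm2 (0.0380). Of metabolic, stress and clock genes they were Angptl4 (0.0246), Sc5d (2.37e-05), Txnip (0.00872), Ddit4 (0.000305), Nupr1 (0.0257), Hspa5 (0.00132), Slc3a2 (0.00382) and Dbp (0.0219). The immune genes were Ccl2 (4.49e-06), Tap1 (0.0434) and RT1-M3-1 (0.00249). Slides followed time in part within each series, and these tests held no slide term, so they do not separate time from slide.

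Dixon's ratio, the gap of the outermost array to its neighbour over the range of the set, marked 7 of 95 sets of 4 to 10 arrays, where chance gives about 1 in 20. In A and B at 48 h, the 1 Hz array replicate 1 was lowest for Egr1 (ratio 0.713), and the sham array replicate 1 was highest for Nr4a2 (0.734). The same 1 Hz array had the highest local background (0.879, at 52.1 intensity units) and negative control signal (0.815, at 27.4). At 8 h in A and B, iTBS replicate 1 had the highest 75th percentile of signal (0.849) and 1 Hz replicate 1 the highest median percent CV between spots (0.946, at 16.7). The array of series C so marked was untreated replicate 3, with the highest percentage of spots well above background at 0 h (0.726, at 74.8%). Series C held 3 arrays at each later time, too few for this test, so it was screened at 0 h alone. The numbers marked in C and in A and B are therefore not comparable.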

How the results depend on the processing

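Over 54 alternative settings, 60 of the 112 named genes past the threshold were lost under none of them. The number of probes past the threshold in C against A and B (11267) was 11955 with scaling to the 75th percentile, 12099 with quantile normalization, 11789 with normexp, 10740 with no filter, 8937 with probes above background on every array, 13119 with series D as a level and 8664 with a slide term. It was 3402 with slide as a random block (correlation 0.296), 4507 with the array with a bad grid, 4263 and 6167 without the first and second slides of series C, and 1439 past a z-ratio of 1.5 with a mean level above 0, which are both among the criteria of the study. Probes higher (5847) were 2223, 2973, 2696, 3455 and 983 under these, in the same order, and probes lower (5420) were 1179, 1534, 1567, 2712 and 456. C against A (13796) gave 5020 with the slide block, 5953 with the bad grid and 6930 without the first slide. C against B (10002) gave 1873, 3012 and 5491, and 4449 without the second slide, and A against B (8981) gave 1342 with the slide block and 1934 with the bad grid. At baseline (5475), the count was 1556 with the slide block, 269 with the slide term and 11 without the first slide. By time (939) it was 607 with series D as a level, 424 with the slide block and 100 with the bad grid. By stimulation it was 0 under every setting run. With the replicate number as a block, 8147 probes passed, 4685 higher and 3462 lower, with 11273 against A, 8130 against B, 8479 for A against B, 4298 at baseline, 869 by time and 0 by stimulation. The cause of these changes was not tested.

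With single arrays left out, the count ran from 9787 to 12392, that of probes higher from 5237 to 6431 and lower from 4546 to 6059, against A from 12742 to 14176, against B from 8416 to 10687 and A against B from 6953 to 9933. The baseline count ran from 2686 to 7044 and was moved most without arrays of sham at 0 h replicate 3 (2686), untreated replicates 2 (3351) and 3 (3414), sham at 2 h replicate 2 (3616) and sham at 8 h replicates 1 and 2 (3610 each). The count by time ran from 510 to 1123. Named genes turned direction in 22 cases, most of them not past the threshold. With the slide term the differences were Cx3cr1 0.72, Cldn5 1.72, Mki67 0.84, Nxph1 0.27, Rrm2 0.43, Ndufs8 0.18 and Bag3 -0.049, and with the replicate block Mki67 0.15. With the bad grid they were Homer1 0.38, Cx3cr1 0.12, Mki67 0.30, Atp5f1b 0.086, Ndufs8 0.20, Hspa5 0.034, Slc3a2 0.081 and Pfkfb4 0.0089. Without the first slide they were Homer1 0.041, Gfap -0.13 and Pdgfra -0.14, without the second Egr3 0.11, and without the third Cx3cr1 0.042 and Mki67 0.17. List medians ran from -2.04 to -0.35 for the activity transcription factors, -1.17 to -0.59 for effectors, -1.22 to -0.34 for cholesterol genes, 1.62 to 2.52 for myelin and -0.46 to 0.56 for cell cycle genes. The test by time could not be run without a slide whose loss empties a time point, and a block by scan run was not run because each slide was its own scan run. Weak probes are limited by signal over background, as for Fosl1, Npas4 and Ptgs2 in series C.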
